A study of Mus musculus with 6 samples.

Results

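The antisense noncoding RNAs of M2c macrophages were taken as the rows of the deposited count table that carry the Ensembl biotype antisense and hold a mean of at least 20 raw counts over the 6 libraries. This selected 144 of 969 antisense rows in a table of 19309 genes. The members were chosen by this mean over both genotypes alone, and the difference between the genotypes played no part in it. The last members inside the limit were Scpep1os with a mean of 20.7, Gm9917 with 20.5 and Gm49227 with 20.3 counts, and the first rows outside it were Gm16124 with 19.7, Gm12841 with 19.3 and Gm4610 with 19.2 counts. Taken alone, 12 members had a mean under 20 counts in the sEH-/- libraries and 15 in the wild-type libraries.

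An antisense RNA is a transcript read from the strand opposite another gene. Such RNAs can act on the gene they face, for example by recruiting chromatin modifiers, by interfering with its transcription or by pairing with its RNA, and many have no known action. Airn and Kcnq1ot1, which silence imprinted genes in cis, are among the best studied in mice.

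RNA came from bone marrow-derived macrophages of 3 sEH-/- mice, which lack the soluble epoxide hydrolase encoded by Ephx2 in every cell, and of 3 wild-type mice, with 1 library a mouse. All cells were grown for 7 days with M-CSF plus GM-CSF, then LPS and IFN-γ for an M1 state, and then TGF-β1 for the pro-resolving M2c state. GEO's description gives 24 h for the M1 step and 48 h for TGF-β1, whereas the study's methods give a shorter M1 step and either 24 or 48 h with TGF-β1. The reads were counted by strand over exons, so that reads of an antisense RNA and of the gene opposite were counted apart.

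Libraries held between 4400197 and 6096440 counts, and Ephx2 had 4, 2 and 1 counts in sEH-/- cells, against 26, 49 and 57 in wild-type cells. All 8 macrophage markers were measured, with a summed level from 1829 to 2297 CPM (TMM-normalized counts relative to the library size) in sEH-/- and from 1642 to 2078 CPM in wild-type libraries. Of 6 neutrophil markers 3 had a row, with sums from 24.8 to 30.3 CPM in sEH-/- and from 17.1 to 20.6 CPM in wild-type libraries, and their part in the results was not tested. Dendritic cell markers (3 of 5 with a row) summed to between 5.65 and 15.1 CPM in sEH-/- and to between 11.9 and 21.3 CPM in wild-type libraries, and the 5 stromal markers to between 8.81 and 25.7 CPM and between 7.69 and 56.1 CPM. None of these rows was at 0 in all libraries. No row was used for the 7 lymphocyte and 4 erythroid markers.

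For the members that the comparison turned on, sequences around the start were taken from RefSeq (GRCm38.p6, 250 bases before to 50 after the start). Such a window was found by symbol for 70 members and began within 50 bases of the start in the count table for 41 of them. Shown are the windows of F630028O10Rik (chrX:96239676-96239975, plus strand) and Gm26782 (chr14:50870046-50870345, plus strand), which were higher in sEH-/- cells, of A330015K06Rik (chr3:65302636-65302935, minus strand), which was lower, and of the imprinted Airn (chr17:12741061-12741360, plus strand). The letters TATAAA of a TATA box are in capitals on either strand. Capitals also mark a CCAAT box, spelled as its name. The GC box, with the letters GGGCGG, is marked in the same way.
F630028O10Rik: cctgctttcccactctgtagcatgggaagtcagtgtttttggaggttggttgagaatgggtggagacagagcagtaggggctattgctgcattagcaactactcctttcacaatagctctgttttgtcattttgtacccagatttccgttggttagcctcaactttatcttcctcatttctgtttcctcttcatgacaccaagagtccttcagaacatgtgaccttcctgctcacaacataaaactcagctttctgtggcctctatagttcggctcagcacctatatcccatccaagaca
A330015K06Rik: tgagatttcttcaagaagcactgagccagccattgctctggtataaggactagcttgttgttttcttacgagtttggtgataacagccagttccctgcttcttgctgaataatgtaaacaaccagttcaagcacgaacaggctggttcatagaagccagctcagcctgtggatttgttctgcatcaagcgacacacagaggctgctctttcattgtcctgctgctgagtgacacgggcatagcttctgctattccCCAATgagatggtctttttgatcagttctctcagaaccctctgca
Gm26782: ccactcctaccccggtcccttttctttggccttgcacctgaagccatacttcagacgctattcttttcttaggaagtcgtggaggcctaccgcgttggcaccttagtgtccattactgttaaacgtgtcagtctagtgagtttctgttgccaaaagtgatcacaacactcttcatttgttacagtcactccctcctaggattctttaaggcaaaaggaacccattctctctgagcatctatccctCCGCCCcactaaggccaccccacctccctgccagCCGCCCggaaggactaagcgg
Airn: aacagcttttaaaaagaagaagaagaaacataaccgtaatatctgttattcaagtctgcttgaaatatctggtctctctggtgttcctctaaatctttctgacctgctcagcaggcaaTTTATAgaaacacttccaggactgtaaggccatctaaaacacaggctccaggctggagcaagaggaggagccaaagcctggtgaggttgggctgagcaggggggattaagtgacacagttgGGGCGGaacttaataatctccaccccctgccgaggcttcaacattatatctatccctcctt
The F630028O10Rik window held none of these letters, that of A330015K06Rik a CCAAT box after the start, that of Gm26782 a pair of GC boxes on the minus strand, and that of Airn a TATA box on the minus strand and a GC box. Over the 41 windows, 3 held a TATA box (7.32%, against 13.6% of all 32851 windows), 18 a CCAAT box (43.9%, against 37.4%) and 19 a GC box (46.3%, against 35.7%). The median GC content was 55.7% in the 41 windows, against 52.7% over all windows, and its part in these shares was not tested. The AP-1 motif TGANTCA, the PU.1 motif GAGGAAGT and the YY1 motif CCGCCATN were each in 2 windows (4.88%), against 7.81%, 3.20% and 4.05% of all windows. Both strands were searched, no marked match in the shown windows overlapped one of another motif, and a match is one of letters only.

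The complementary bases of such a pair are shown for Gm49774 (a single exon on the minus strand of chromosome 17) and Hmga1, which encodes a chromatin protein. Both transcripts start within the same 22 bases, so that the first bases of one, read 5′ to 3′, are the reverse complement of the first bases of the other.
Gm49774: CCAGCTGCCGCCGCCGCGCGCG
Hmga1: CGCGCGCGGCGGCGGCAGCTGG
The Hmga1 stretch is the start of 1 annotated Hmga1 transcript (GENCODE M21). Gm49774 held 90, 36 and 33 counts in sEH-/- cells, against 72, 169 and 120 in wild-type cells, which lay just apart after normalization (15.4 CPM in the highest sEH-/- and 15.8 CPM in the lowest wild-type library), and it did not pass the test (log2 difference, sEH-/- over wild-type, -1.08 ± 0.29 SE, edgeR adjusted p = 0.0644).

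By position, 130 of the 144 members overlapped a row for a protein-coding gene on the opposite strand, called its partner below (the longest overlap where there were several, which was so for 24 members). A head-to-head arrangement, in which the starts lie within the overlap, was found for 46 members, with a median of 726.5 bases between the starts. In 41 cases the antisense RNA lay inside the coding gene, in 35 the 3′ ends overlapped (tail-to-tail), and 8 antisense RNAs spanned the coding gene. The other 14 members faced no coding row, and 5 of them did face a coding gene of GENCODE M21 that was not analysed here. Exons were shared with the partner by 117 of the 130, with a median of 343 and a range from 3 to 5142 bases, and 13 lay opposite introns only. A single exon was annotated for 28 of the 144, and the median exonic length was 2242.5 bases.

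Antisense RNAs were rare transcripts. Over all 969 rows they took 0.271%, 0.242% and 0.234% of the counts in sEH-/- cells, against 0.218%, 0.244% and 0.258% in wild-type cells. The genotypes overlapped, with means of 0.249 ± 0.0195% (SD, n = 3) and 0.240 ± 0.0201% (SD, n = 3; two-sided exact permutation test, p = 0.7, where 0.1 is the smallest p this design allows). The members alone took from 0.158% to 0.189% of the counts. The median member held 38.7 counts per library, and 27 held 100 or more.

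Per kilobase of exon, the median level of the members was 4.62 CPM, against 13.1 CPM for the 11856 protein-coding genes tested, 2.46 CPM for the 299 lincRNAs tested and 21.5 CPM for the 123 partners tested. Members needed a mean of at least 20 counts, while the tested sets needed only more than 5. At that lower limit the 402 antisense rows tested had a median of 1.92 CPM per kb, below that of the lincRNAs. On the same scale, 26 of the 130 members lay above their partner. The most abundant member by counts, Brip1os (a transcript that spans Ints2, an Integrator subunit), had a mean of 563 counts and 16.6 CPM per kb, against 7.50 CPM per kb for Ints2. A930007I19Rik had 264 counts opposite Pdcd1lg2, the gene of the checkpoint ligand PD-L2, which had 26 counts, and the genes shared no exonic bases. Mirt2, an RNA described in macrophages answering LPS, had 147 counts opposite Spatc1 with 10.2 counts. The gene facing Gm20658, Vipr2, which encodes a receptor of vasoactive intestinal peptide, had a mean of 3.83 counts. Kcnq1ot1 had more counts (39.0) than Kcnq1 (23.0) but, spread over an exon of 93092 bases, only 0.0797 CPM per kb against 1.07.

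**Figure D1:**
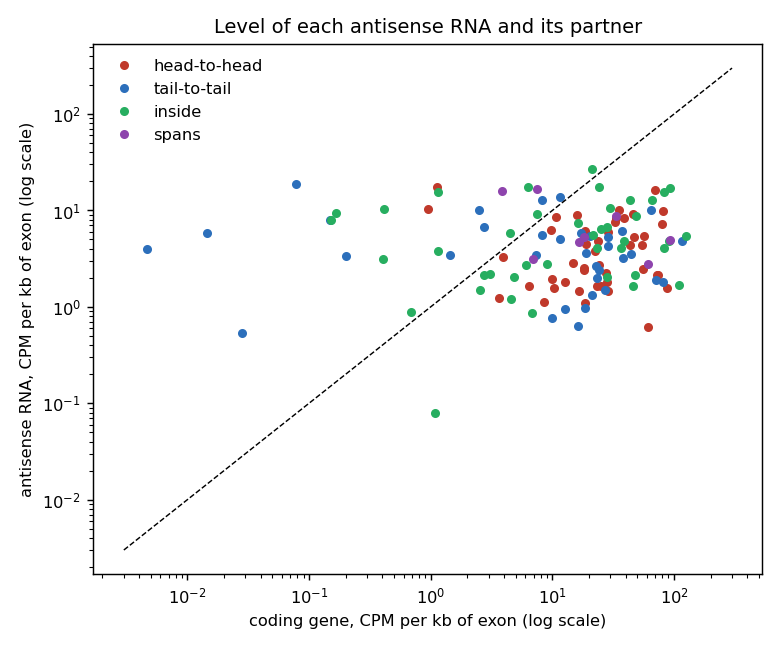
Mean level over the 6 libraries of 130 antisense RNAs (vertical axis) against that of the coding gene on the opposite strand (horizontal axis), both in CPM per kb of exon on log scales and coloured by arrangement. The dashed line marks equal levels, and 26 antisense RNAs lie above it.

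The counts of antisense RNAs over all their exons were also set against the counts expected for the coding strand in the exons that both share. Reads counted on the wrong strand would add to the antisense counts there. Across 32 antisense rows whose shared exons should hold at least 1000 sense counts over the 6 libraries, the antisense count was at its lowest 1.15% of the sense count expected in the shared bases (Gm9754, 17 counts opposite Fbxw8). Among the 121 members that shared exons with any coding row, the lowest value was 6.21% and the median 94.6%, and in 57 members the antisense RNA held more counts than expected for the sense strand there. No member was below 5%. These values set all exons of the antisense RNA against the shared bases alone, so that they run high where few bases are shared. The antisense share within the shared bases was not measured, and the part of wrong-strand reads in the members' counts was not tested.

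All 144 members had enough counts to be tested. Comparing the genotypes, 6 of them passed the call rule (edgeR's quasi-likelihood test, adjusted p below 0.05 over all 13785 tested genes and a change of more than 1.5-fold; log2 differences are sEH-/- over wild-type, ± 1 SE), 3 higher and 3 lower in sEH-/- macrophages. Over all tested genes the rule called 2.61%, namely 1.51% higher and 1.1% lower, so that 6 of 144 (4.17%) was close to the background. F630028O10Rik, Gm20658 and Gm26782 were higher, and A330015K06Rik, Gm45774 and Gm15943 were lower. A330015K06Rik and Gm45774 had a mean under 20 counts in the sEH-/- libraries and reached the limit only through the wild-type libraries, where they were higher. Without regard to the call, the 3 libraries of one genotype did not overlap those of the other in 45 members, against 26.3% of all tested genes, and 37 members (22 higher, 15 lower) had an unadjusted p below 0.05, against 23.4% of all tested genes.

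F630028O10Rik (ENSMUSG00000078122, plus strand of mm10 chromosome X, 96239926 to 96243636, 2 exons) had the largest log2 fold change of the 144 in either direction. It held 185, 161 and 98 counts in sEH-/- cells, against 35, 29 and 44 in wild-type cells. Every sEH-/- library lay above every wild-type library, with 29.0 ± 5.41 CPM (SD, n = 3) against 6.76 ± 1.78 CPM (SD, n = 3). The log2 difference was 2.12 ± 0.23 (edgeR, adjusted p = 0.00418), and it was called in all 14 other fits, where it lay between 1.89 and 2.27. No coding gene of the annotation faced it. The nearest, 3567 bases away on the opposite strand, was Vsig4, a complement receptor of tissue macrophages, with 8, 14 and 20 counts in sEH-/- cells, against 8, 7 and 5 in wild-type cells (log2 difference 1.19 ± 0.49, edgeR adjusted p = 0.179). The genotypes met at 8 counts in Vsig4, which did not pass the test.

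Gm20658 (ENSMUSG00000093765, minus strand of chromosome 12, 116102769 to 116138648) lay inside Vipr2 and opposite introns only. It held 157, 165 and 163 counts in sEH-/- cells, against 97, 111 and 114 counts in wild-type cells. In CPM this was 32.6 ± 5.50 (SD, n = 3) against 19.9 ± 1.72 (SD, n = 3), without overlap, and the log2 difference was 0.71 ± 0.15 (edgeR, adjusted p = 0.0349). Vipr2 had 2, 2 and 6 counts in sEH-/- cells, against 3, 7 and 3 in wild-type cells and was too low to be tested.

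Gm26782 (ENSMUSG00000097431, plus strand of chromosome 14, 50870324 to 50880603) started 236 bases from Tep1, the gene of telomerase-associated protein 1, in the opposite direction, and shared 144 exonic bases with it. Its counts were 137, 132 and 99 in sEH-/- cells, against 74, 87 and 88 in wild-type cells. The genotypes did not overlap (24.3 ± 2.0 against 15.4 ± 1.13 CPM, SD, n = 3 each), and the log2 difference was 0.67 ± 0.14 (edgeR, adjusted p = 0.0345). Tep1 had 1427, 1205 and 1024 counts in sEH-/- cells, against 1035, 1360 and 1073 counts in wild-type cells. In CPM the genotypes did not overlap in Tep1 either, with 237 to 244 in sEH-/- and 192 to 228 in wild-type libraries. Its log2 difference, of the same direction as that of Gm26782, was 0.18 ± 0.079 (edgeR, adjusted p = 0.206), so that it did not pass the test.

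A330015K06Rik (ENSMUSG00000104093, minus strand of chromosome 3, 65133060 to 65302685) had the largest decrease. It lay within Kcnab1, which encodes a β subunit of voltage-gated potassium channels, and shared 201 exonic bases with it. It held 20, 11 and 11 counts in sEH-/- cells, against 28, 58 and 49 counts in wild-type cells. The genotypes were apart, with 2.73 ± 0.621 CPM (SD, n = 3) against 8.12 ± 1.73 CPM (SD, n = 3) and a log2 difference of -1.56 ± 0.29 (edgeR, adjusted p = 0.0248). Kcnab1 had 51, 27 and 20 counts in sEH-/- cells, against 21, 36 and 36 in wild-type cells, which overlapped (log2 difference 0.17 ± 0.29, edgeR adjusted p = 0.784).

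Gm45774 (ENSMUSG00000110588, minus strand of chromosome 8, 94170748 to 94173412, 1 exon) started 748 bases from Mt2 in a head-to-head arrangement. Mt2 encodes metallothionein 2, a metal-binding protein. Gm45774 had 13, 10 and 12 counts in sEH-/- cells, against 18, 42 and 40 in wild-type cells, and the log2 difference was -1.37 ± 0.32 (edgeR, adjusted p = 0.0457). The wild-type library with 18 counts lay close to the sEH-/- libraries. Mt2 had 254, 194 and 242 counts in sEH-/- cells, against 278, 330 and 313 counts in wild-type cells, with a log2 difference of -0.30 ± 0.13 (edgeR, adjusted p = 0.182). The counts of Gm45774 over its whole exon were 11.4% of those expected for Mt2 in the 432 exonic bases that they shared. This was one of the lower values among the members, and the antisense share within the shared bases was not measured.

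Gm15943 (ENSMUSG00000086801, plus strand of chromosome 15, 58214475 to 58324053) overlapped the 3′ end of Klhl38, a gene of the Kelch-like family. It had 44, 23 and 45 counts in sEH-/- cells, against 68, 121 and 123 in wild-type cells, without overlap (7.53 ± 2.90 against 18.9 ± 3.61 CPM, SD, n = 3 each). The log2 difference was -1.34 ± 0.27 (edgeR, adjusted p = 0.0290). Klhl38 had 9, 16 and 13 counts against 12, 31 and 20, with a log2 difference of -0.58 ± 0.37 (edgeR, adjusted p = 0.393), and the genotypes overlapped.

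F630028O10Rik was called in every fit. The other 5 were no longer called when replicate 2 of sEH-/- or replicate 2 or 3 of wild-type was left out, in fits that called 96, 25 and 6 of all tested genes in place of 360. The adjusted p rose there to at most 0.134 for A330015K06Rik, 0.149 for Gm15943, 0.186 for Gm20658, 0.193 for Gm26782 and 0.210 for Gm45774 (edgeR). Their log2 differences kept their direction in these 3 fits. They lay between -1.50 and -1.41 for A330015K06Rik, -1.31 and -1.08 for Gm15943, -1.27 and -1.23 for Gm45774, 0.64 and 0.73 for Gm20658, and 0.60 and 0.68 for Gm26782. With the replicate number as a block, calls were also lost for Gm20658, Gm26782 and Gm45774 (edgeR, adjusted p = 0.0607, 0.0862 and 0.0732). With the library total as a covariate they were lost for Gm26782, Gm15943 and Gm45774 (edgeR, adjusted p = 0.0591, 0.0605 and 0.0822). Gm45774 lost its call further with DESeq2, with limma-voom and without sEH-/- replicate 1, at adjusted p values from 0.0545 to 0.0609.

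**Figure D2:**
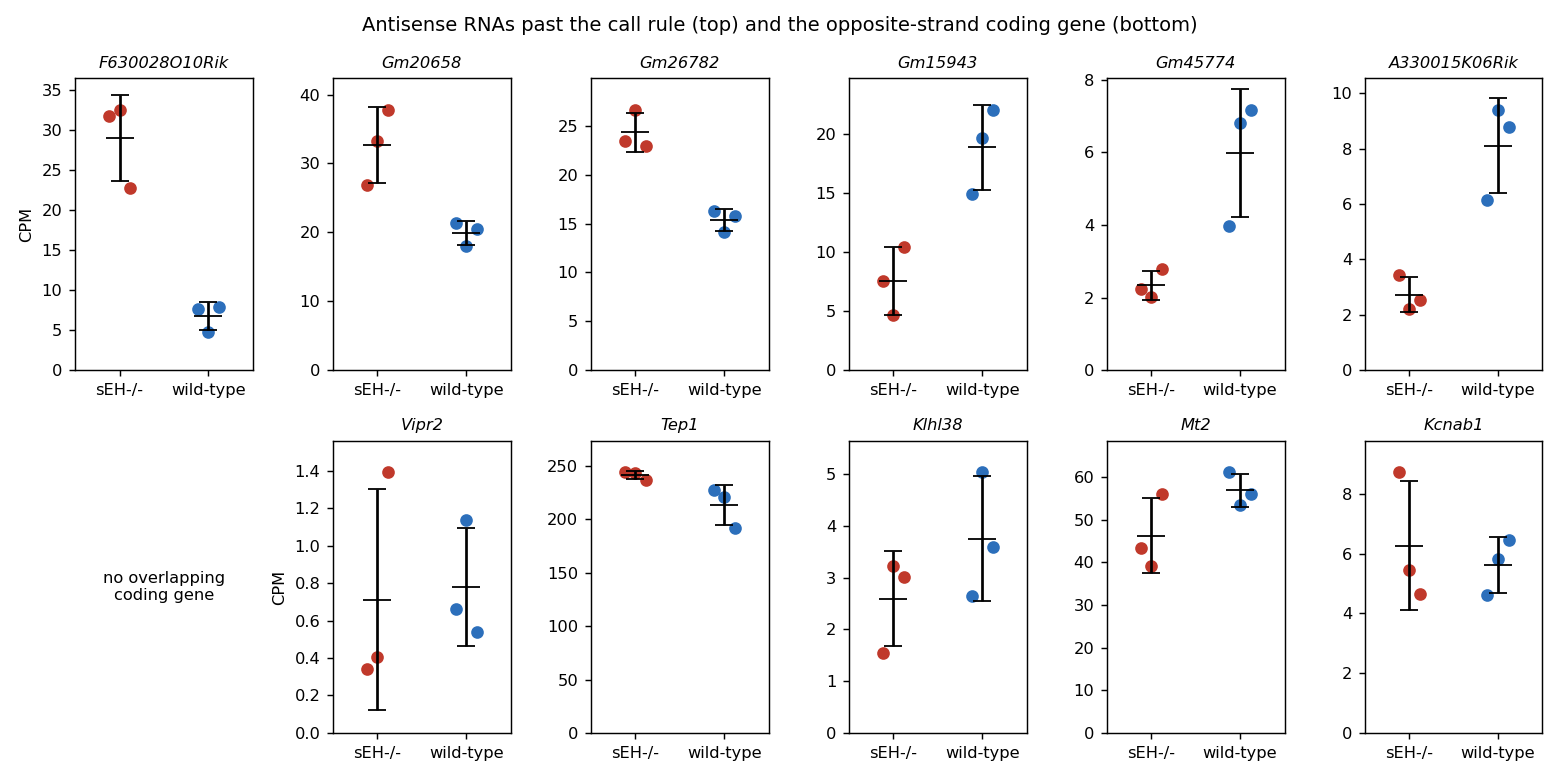
CPM in each library of the 6 antisense RNAs past the call rule (top) and of the coding gene opposite (bottom), sEH-/- in red and wild-type in blue, with the mean and SD over 3 libraries. In every top panel the genotypes are apart, from 22.7 to 32.5 CPM against 4.71 to 7.89 CPM in F630028O10Rik, while in the lower panels Tep1, Klhl38, Mt2 and Kcnab1 did not pass the call rule and Vipr2 was too low to be tested.

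**Figure D3:**
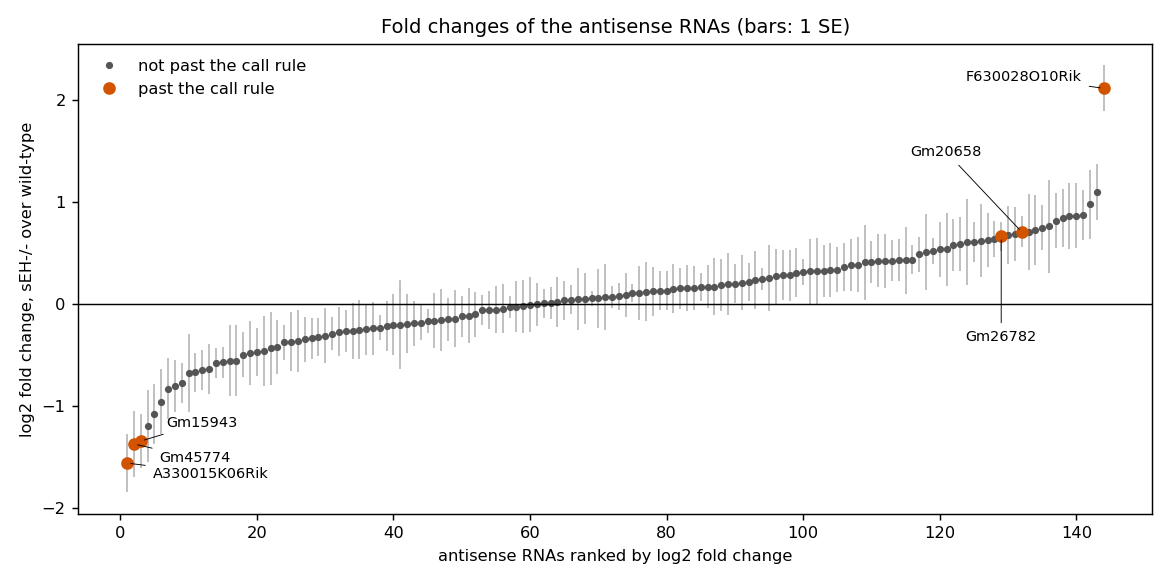
Log2 fold change of the 144 antisense RNAs, sEH-/- over wild-type, ranked from lowest to highest with 1 SE (edgeR). The 6 called RNAs are marked in orange, from -1.56 for A330015K06Rik to 2.12 for F630028O10Rik, and 84 of the 144 points lie above 0.

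As a group the members were spread around a small positive value. The median log2 fold change was 0.07, against 0.00 (-0.000922) over all tested genes, and 84 of 144 lay above 0, against 49.8% of all tested genes. The middle of the distribution ran from -0.24 (lower quartile) to 0.39 (upper quartile). Relative to the wild-type mean, the median log2 CPM of the members was 0.18, 0.06 and -0.07 in sEH-/- cells, against -0.08, 0.03 and 0.07 in wild-type cells, so that the genotypes overlapped. Without sEH-/- replicate 1 the median fell to 0.0075. The 2 libraries with the fewest counts, sEH-/- replicate 3 and wild-type replicate 1, had the lowest of these medians, and the part of depth in them was not tested beyond a fit with the library total as a covariate, in which the median was 0.11. Members lying inside a coding gene stood highest, with a median of 0.32 and 32 of 41 above 0. Their medians per library were 0.43, 0.20 and 0.10 in sEH-/- cells, against -0.08, 0.04 and 0.06 in wild-type cells, without overlap but highest in sEH-/- replicate 1, without which the fitted median was 0.18 with 30 above 0. Head-to-head members had a median of -0.04 (22 of 46 above 0), tail-to-tail members of -0.03 (16 of 35) and members that span a gene of 0.28 (7 of 8).

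None of the 123 tested partners was called by edgeR, where 2.61% of all genes were, and none was by DESeq2 or limma-voom. At an unadjusted p below 0.05 there were 17 partners (6 higher, 11 lower) in edgeR's test, against 23.4% of all tested genes. The libraries of the genotypes did not overlap in 23 of the 123 partners, against 26.3% of all tested genes, so that both counts were below the background. Counting every coding gene opposite a member, 0 of 151 tested genes were called and 23 had an unadjusted p below 0.05, also a lower share than over all genes. The lowest adjusted p belonged to Car9, which encodes a carbonic anhydrase induced by low oxygen, with a log2 difference of -0.45 ± 0.11 (edgeR, adjusted p = 0.0446), under the fold change limit. Partners were also measured at higher counts than the antisense RNAs, with a median SE of 0.095 against 0.25, and their median absolute log2 fold change was 0.11 against 0.32. As duplicate reads were removed before counting, differences in the most abundant partners can be underestimated, and whether this was so here was not tested.

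The fold changes of an antisense RNA and its partner had the same sign in 66 of 123 pairs (53.7%). Over all 1857 opposite-strand pairs of tested genes this was 54.6%. Across the 123 pairs Pearson's r was 0.15 and Spearman's rho 0.22, given as a description, since both genes of a pair come from the same 6 libraries. The sign was shared by 27 of 46 head-to-head pairs (r = 0.31), 17 of 29 tail-to-tail pairs (r = 0.35), 17 of 40 pairs with the antisense RNA inside the gene (r = 0.05) and 5 of 8 pairs in which it spans the gene (r = 0.40).

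**Figure D4:**
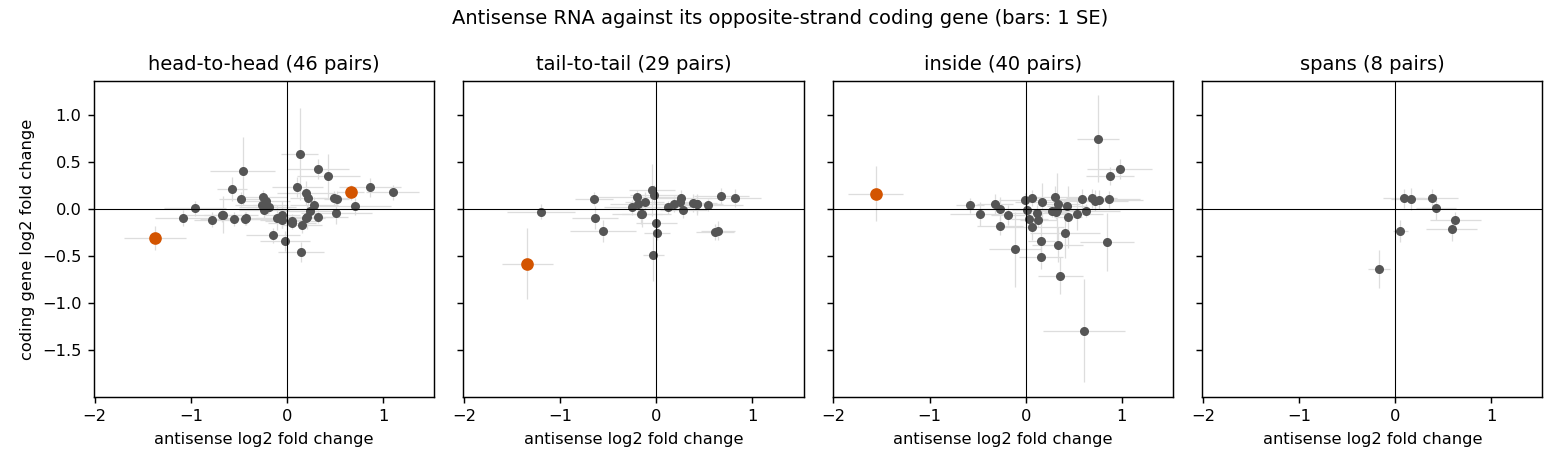
Log2 fold change (sEH-/- over wild-type, edgeR) of each antisense RNA on the horizontal and of its partner on the vertical axis with 1 SE, in a panel for each arrangement of the 123 pairs, called antisense RNAs in orange. The antisense RNAs spread from -1.56 to 1.10 while most partners stay close to 0, and 66 of the 123 points lie in quadrants where the signs are shared.

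Whether an antisense RNA moved apart from its partner was tested on the log2 ratio of their counts in each library (limma, adjusted over the 1857 pairs). The ratio differed between the genotypes in 5 of the 123 pairs, a share no larger than the 4.47% over all pairs. In A330015K06Rik and Kcnab1 the antisense count was 39.2%, 40.7% and 55.0% of the coding count in sEH-/- cells, against 133%, 161% and 136% in wild-type cells. The antisense RNA held fewer counts than Kcnab1 in every sEH-/- library and more in every wild-type library, and the log2 ratio differed by -1.65 (SE 0.27, adjusted p = 0.00538 from limma).

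Airn (ENSMUSG00000078247, plus strand of chromosome 17, 12741311 to 12860136) is transcribed from an intron of Igf2r, the gene of the cation-independent mannose 6-phosphate receptor, and silences its paternal copy in many tissues. In the annotation they overlapped over 28354 bases without shared exons. Airn had 95, 76 and 61 counts in sEH-/- cells, against 96, 161 and 116 counts in wild-type cells (log2 difference -0.57 ± 0.15, edgeR adjusted p = 0.0617). In CPM the genotypes did not overlap, with 14.1 to 16.3 in sEH-/- and 20.8 to 26.1 in wild-type libraries, but Airn did not pass the test. Igf2r had 2587, 2367 and 2082 counts against 2221, 2441 and 1829 (log2 difference 0.21 ± 0.13, edgeR adjusted p = 0.360). Airn counts were 3.67%, 3.21% and 2.93% of those of Igf2r in sEH-/- cells, against 4.32%, 6.60% and 6.34% in wild-type cells, and this ratio differed by -0.79 on the log2 scale (SE 0.19, adjusted p = 0.0345 from limma).

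Gm50169 had a higher ratio to Gnal, which encodes the stimulatory G protein α subunit of olfactory neurons. Its counts were 63, 44 and 63 in sEH-/- cells, against 33, 57 and 55 in wild-type cells, which overlapped, whereas Gnal had 60, 39 and 48 against 65, 111 and 85. The ratio was 105%, 113% and 131% in sEH-/- cells, against 50.8%, 51.4% and 64.7% in wild-type cells (log2 difference 1.06, SE 0.21, adjusted p = 0.0132 from limma). Neither gene passed the call rule on its own, with log2 fold changes of 0.36 (adjusted p = 0.398) for Gm50169 and -0.71 (adjusted p = 0.0648) for Gnal from edgeR.

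For 9530082P21Rik and Flywch1, a zinc finger gene that it meets tail-to-tail, the ratio was 13.1%, 17.5% and 14.6% in sEH-/- cells, against 8.46%, 9.04% and 7.03% in wild-type cells (log2 difference 0.88, SE 0.20, adjusted p = 0.0252 from limma). For Gm16754 and Keap1, the gene of the adaptor that targets the transcription factor Nrf2 for degradation, it was 8.71%, 5.78% and 8.49% against 11.4%, 13.4% and 14.1% (log2 difference -0.77, SE 0.21, adjusted p = 0.0489 from limma). In all 5 pairs the libraries of the genotypes were apart. These calls rested on the variance model, since without a trend of the variance with abundance none of the 5 passed, and the number of called pairs was between 0 and 9 with single libraries left out.

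**Figure D5:**
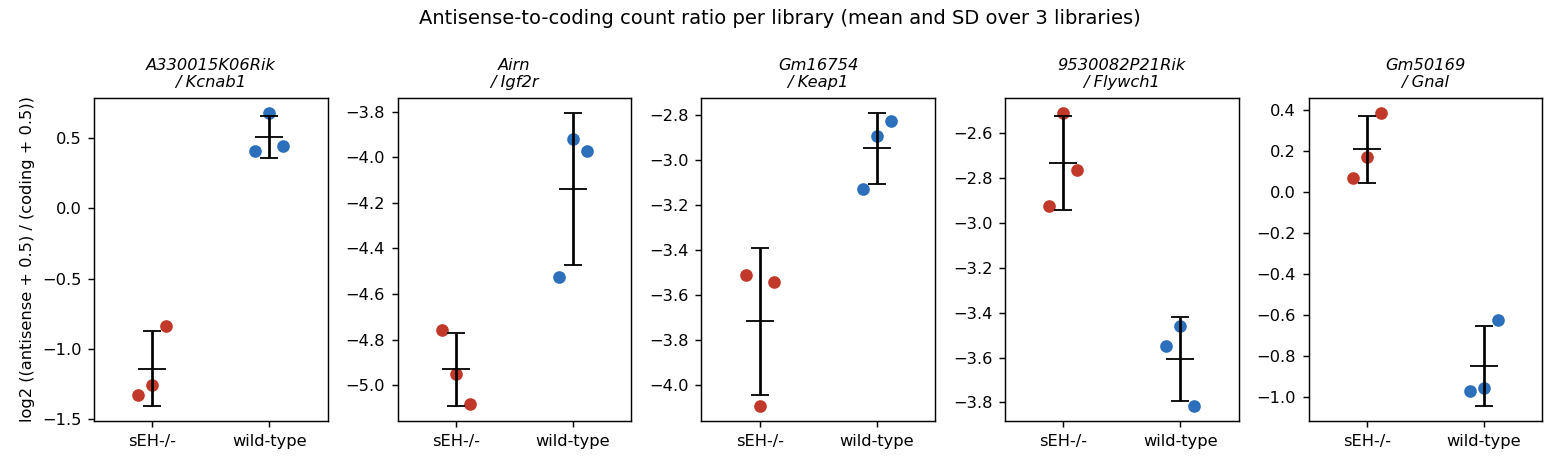
Log2 of the antisense count over the coding count (0.5 added to each) in each library for the 5 pairs past the ratio test, with the mean and SD over 3 libraries and a separate vertical scale in each panel. The sEH-/- libraries lie below the wild-type libraries in the first 3 panels and above them in the last 2, and the log2 differences run from -1.65 to 1.06.

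Of 34 regulatory RNAs described in other settings, 7 had an antisense row, and 3 of these were members. Beside Airn these were Kcnq1ot1 and Zeb2os, which faces Zeb2, a transcription factor of myeloid and mesenchymal cells. Kcnq1ot1 had 59, 41 and 27 counts in sEH-/- cells, against 35, 42 and 30 in wild-type cells (log2 difference 0.33 ± 0.26, edgeR adjusted p = 0.485). Zeb2os had 184, 192 and 156 counts against 150, 203 and 196 (0.07 ± 0.11, edgeR adjusted p = 0.759), and was between 6.76% and 8.06% of Zeb2 in all 6 libraries. Both overlapped between the genotypes. Below the limit of 20 counts, Hotairm1 had 16, 8 and 10 counts in sEH-/- cells, against 15, 23 and 24 in wild-type cells (log2 difference -0.75, edgeR adjusted p = 0.181), and Tsix, Uchl1os and Dnm3os were too low to be tested.

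Junos faces Jun, the AP-1 subunit, head-to-head. It had 265, 229 and 179 counts in sEH-/- cells, against 170, 177 and 154 counts in wild-type cells, or 44.4 ± 2.50 against 31.2 ± 5.35 CPM (SD, n = 3 each), without overlap. Its log2 difference of 0.52 ± 0.13 (edgeR, adjusted p = 0.0508) did not pass the test. Jun had 850, 841 and 599 counts against 636, 876 and 772 (0.11 ± 0.08, edgeR adjusted p = 0.456), and overlapped between the genotypes.

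A further 3 partners came from the lists of TGF-β/Smad genes and interferon-stimulated genes. Gm26626, inside the transcription factor gene Runx1, had 67, 25 and 20 counts in sEH-/- cells, against 21, 30 and 25 in wild-type cells, and only sEH-/- replicate 1 stood above the others (log2 difference 0.62 ± 0.36, edgeR adjusted p = 0.326). Gm13822, which shares 38 bases with the start of Oasl1, an interferon-induced inhibitor of Irf7 translation, had 41, 28 and 21 against 30, 26 and 32 counts (0.11 ± 0.27, edgeR adjusted p = 0.852). Gm20496, opposite the immunoproteasome subunit gene Psmb8, had 28, 25 and 25 against 11, 18 and 19 counts, without overlap (0.82 ± 0.27, edgeR adjusted p = 0.104). None of these partners was called, with log2 fold changes of -0.02 for Runx1, 0.24 for Oasl1 and 0.12 for Psmb8. Over the whole lists, 3 genes were called higher and 2 lower among 39 tested TGF-β/Smad genes, and 3 higher and 0 lower among 53 interferon-stimulated genes. Over all tested genes 2.61% were called in either direction. The lists were chosen with earlier results of these data known, so that setting their calls beside this share is no test of them.

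None of the 8 members with the most counts was called, Junos and Zeb2os included. Brip1os had 650, 536 and 479 counts in sEH-/- cells, against 522, 601 and 591 in wild-type cells, with a log2 difference of 0.06 ± 0.076 (edgeR, adjusted p = 0.702). Rab10os, which meets the small GTPase gene Rab10 tail-to-tail, had 371, 381 and 257 against 251, 329 and 335 counts (0.25 ± 0.11, edgeR adjusted p = 0.191). For 4930430E12Rik, which faced no coding gene, the log2 fold change was 0.11 (SE 0.086), and for A930007I19Rik it was -0.03 (SE 0.11). 5830432E09Rik lies inside Ptpre, a receptor-type phosphatase gene, and had 293, 203 and 164 against 178, 202 and 182 counts (0.32 ± 0.13, edgeR adjusted p = 0.171). Gm13571, inside Ly75, the gene of the endocytic receptor DEC-205, had 216, 100 and 129 against 152, 216 and 227 counts (-0.32 ± 0.19, edgeR adjusted p = 0.342). In each of these 6 the libraries of the genotypes overlapped.

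On chromosome 14, where Ephx2 lies, 2 members were within 10 Mb of it, Gm4285 (log2 fold change 0.15) and Gm15629 (0.58), and neither passed the test. Exons were shared with another row on the same strand by 2 members.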

How the data were processed

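The 6 RNA-seq libraries of M2c macrophages, 3 per genotype, were analysed. The authors deposited raw counts per gene, which they made by trimming (Trimmomatic 0.39), alignment to mm10 (STAR 2.7.7a), removal of duplicate, multi-mapping, ribosomal and mitochondrial reads (Picard 2.21.7) and counting by strand over exons (featureCounts 1.6.5). They then used DESeq2 1.30.0, whose output was not used here. These versions are those of the submitters' processing notes, and the study's methods name later ones of STAR, Picard, featureCounts and DESeq2. The library kit is a stranded mRNA kit in GEO's description and a stranded total RNA kit in the methods.

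Counts were fitted with edgeR 4.0.16 in R 4.3.3 (TMM, glmQLFit, glmQLFTest) on the 13785 genes whose mean exceeded 5 counts, with Benjamini-Hochberg adjustment over all of them, and called where the adjusted p was below 0.05 and the change more than 1.5-fold in either direction. A log2 difference is sEH-/- over wild-type, given ± 1 SE (its size divided by the root of the F statistic). Antisense-to-coding ratios, log2((antisense + 0.5)/(coding + 0.5)), were fitted with limma 3.58.1 over all opposite-strand overlapping pairs of tested genes, with the variance trend on the rarer gene. Tables were made with Python 3.11.15 and pandas 2.3.3, figures with matplotlib 3.10.9. Exons came from GENCODE M21, which held all 144 members and 19286 of the 19309 identifiers. Biotypes are those of the count table, and carry names of earlier Ensembl releases; Trmt61b, named as a coding gene, is among the antisense rows.

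Members and lists were chosen with earlier results of these data known. Named were the called members, the 8 most abundant, described regulatory RNAs, members whose partner was called or on a list, pairs with a changed ratio, the 3 rows on either side of the limit of 20 counts, and the partners. Vsig4, Car9, Gm49774, Mirt2, Gm9754, the members near Ephx2 and Gm13580 were named after their values were seen. Libraries of a genotype differed by more than sampling noise (chi-square per degree of freedom from 2.27 to 4.91), and p-values measure the spread between these mice. Depth, from 4400197 to 6096440 counts, gave a median SE of 0.25 for a member's log2 fold change. On simulated data edgeR called 190 of 200 changed genes among 13785, with 7 false calls. The ratio test called 36 of 52 changed pairs among 1857, with 3 false calls. Whether these rates hold at the counts and fold changes of the members was not tested. Alternatives were DESeq2 1.42.0, limma-voom, RLE or no normalization factors, other filters, a replicate block, the library total as a covariate, no fold change limit, other limits on the mean count, partners by exonic overlap, and each library left out.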

Additional observations from a re-analysis of the deposited data

How the results depend on the processing

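The number of members called higher was 3 and went from 1 to 6 with single libraries left out, and the number called lower was 3 and went from 0 to 6. Without wild-type replicate 1 there were 5 called higher and 6 lower, and without wild-type replicate 2 or wild-type replicate 3 there were 1 higher and 0 lower each, as also without sEH-/- replicate 2. Calls over all tested genes moved with them, from 360 to 625 without wild-type replicate 1, and to 25, 6 and 96 in the fits just named. Without sEH-/- replicate 3 there were 6 higher. No filter on counts gave 5 lower, the library total as a covariate 1 lower, and a limit of 50 counts on the mean 1 lower of 52 members. Partners called higher stayed at 0 in each alternative. Partners called lower were 0 and became 1 with no filter, 1 with no fold change threshold, and 0 to 1 with single libraries left out. The number of member pairs with a changed ratio was 5, and it was 0 without the variance trend and 0 to 9 with single libraries left out. With the replicate number as a block, 1 member was called higher and 1 pair had a changed ratio, while calls over all tested genes fell from 360 to 234. The replicate block changed no other count of members, partners or pairs by more than 1.5 times. The replicate numbers were not taken to pair the mice. Deviations of same-numbered libraries from their genotype mean correlated at -0.101, -0.295 and -0.0423. With 3 libraries per genotype these values cannot show whether the mice were paired. The cause of these changes was not tested. The median log2 fold change of the members, the number of same-direction pairs (63 to 73) and the log2 fold change of Ephx2 (-4.53 to -3.79) kept their direction in every alternative. With partners chosen by exonic overlap, 63 of 115 pairs shared their sign. Of 350 log2 fold changes of single named members under the alternatives, 318 kept their sign and their side of the threshold, 24 lost a call, 1 gained one and 7 turned their sign. Those 7 lay close to 0. For Brip1os, single libraries left out gave -0.00196 to 0.115, for A930007I19Rik -0.150 to 0.0371, with 0.00860 under the library total as a covariate, and for Gm13822 -0.0616 to 0.248. With a median SE of 0.25, a change of the members' median size (0.32 on the log2 scale) was not told from the replicate error, and the parts of depth and of differences between mice in that error were not separated.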

Other observations

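Antisense rows with a mean above 5 and below 20 counts numbered 258 among the tested genes. Of these 0 were called higher and 1 lower by edgeR's quasi-likelihood test, and 27 had an unadjusted p below 0.05, against 2.61% called and 23.4% with such a p over all tested genes. The called row was Gm13580 on chromosome 2, which faced no coding row. With a mean under 5 counts in the sEH-/- libraries, it was tested only through the wild-type libraries, where it was higher. It had 5, 2 and 6 counts in sEH-/- cells, against 18, 43 and 36 in wild-type cells, and its log2 difference was -2.73 ± 0.42 (edgeR, adjusted p = 0.0157). The genotypes did not overlap.

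Rows of this lower range that lie inside a coding gene had a median log2 fold change of 0.15, with 58 of 89 above 0. Tail-to-tail rows had a median of 0.18 (48 of 67 above 0), head-to-head rows of 0.08 (43 of 76) and rows opposite no coding row of -0.36 (5 of 20 above 0). A further 567 antisense rows were too low to be tested.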
